A study of Mus musculus with 20 samples.

Results

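A CpG reads the same on both strands of DNA, so each CpG offers a cytosine on the plus strand and, at the next position, a cytosine on the minus strand. The CpGs described here are those at which both cytosines were measured. They were found as autosomal positions listed together with the next position on the same chromosome, and runs longer than 2 positions were cut into pairs from the lowest position. In the 13-month libraries this gave 129783 pairs, which held 259566 of 1126583 listed autosomal positions (23.04%), and in the 3-month libraries 146495 pairs, which held 292990 of 1208113 (24.25%). Both ages listed 124930 of the pairs, and the union was 151348. Runs of exactly 2 positions gave 84.97% of the pairs at 13 months and 85.22% at 3 months. The lower position of a pair is called the lower position below and is the plus-strand cytosine where the pair spells CG; the upper position is the minus-strand cytosine.

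The values came from reduced representation bisulfite sequencing, in which DNA is cut at CCGG and bisulfite conversion marks unmethylated cytosines, and are percent methylation per position in 20 libraries. Their source was homogenised mouse brain after a step that selects microglia, its resident macrophages. HEM mice carry an X-linked transgene in which the murine Thy-1 promoter drives full-length human wild-type α-synuclein, which forms deposits in Parkinson disease, and WT mice serve as controls. At 13 months of age 8 libraries were HEM and 4 WT, and at 3 months 4 were HEM and 4 WT. All were labelled B6D2F1/J, a hybrid descended from C57BL/6J and DBA/2J mice, except 1 HEM library of 13 months without a strain label, and the design text counts 3 WT mice of 3 months where 4 libraries carry that label. The ages were deposited as separate sets, so age and set cannot be told apart. Read numbers behind the percentages are unknown, so counting error cannot be given.

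When DNA is copied, each daughter molecule keeps an old strand with its methyl groups and receives a new strand without them. Uhrf1 binds CpGs methylated on the old strand only and brings in Dnmt1, which copies the mark onto the new strand, so that a methylated CpG normally carries it on both strands. Dnmt3a and Dnmt3b place methyl groups without this template, and the Tet enzymes oxidise them. Percentages of both strands of a CpG show how far their mean levels match over the cells sampled. They do not show whether both strands of the same molecule are marked alike.

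The pairs were checked against sequence where the RefSeq promoter table of GRCm38.p6, the assembly of the mm10 build named for these data, covers them. Of 21080 pairs of the 13-month set in a window from 250 bases before to 50 bases after a gene start, 21015 spelled CG (99.69%), as did 23325 of 23408 at 3 months (99.65%). The rest at 13 months were 57 that spelled GG and 8 that spelled GC, all 8 from runs of odd length. CCGG, the site of the enzyme, held 24.59% of CG pairs in these windows at 13 months and 24.46% at 3 months, against 16.84% of positions measured on 1 strand at 13 months. Mean absolute strand differences were 1.25 points at pairs in CCGG and 0.604 points at other pairs at 13 months, and 1.22 and 0.532 points at 3 months.

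Sequences of 3 promoter windows are given because they show the contrast the results turn on. That of Vmn2r29, a vomeronasal receptor gene, held all 7 promoter pairs whose strands differed by 40 points or more in most libraries of every group. Those of Plagl1, a maternally imprinted zinc finger gene, and Boll, a germ cell RNA-binding protein gene, had a similar mean level with closer strands. Both were picked with their values already known. The windows are chr7:7278240-7278539 (minus strand), chr10:13090582-13090881 (plus strand) and chr1:55362679-55362978 (minus strand), from the RefSeq table of GRCm38.p6, written 5′ to 3′ in the direction of the gene. Capitals mark the CG of each pair measured on both strands in both ages.
Vmn2r29: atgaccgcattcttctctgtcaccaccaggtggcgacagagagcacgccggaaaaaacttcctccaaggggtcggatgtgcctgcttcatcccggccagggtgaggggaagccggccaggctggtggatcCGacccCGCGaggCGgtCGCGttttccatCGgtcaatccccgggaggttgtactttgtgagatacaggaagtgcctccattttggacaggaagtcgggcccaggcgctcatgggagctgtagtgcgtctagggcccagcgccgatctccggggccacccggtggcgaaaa
Plagl1: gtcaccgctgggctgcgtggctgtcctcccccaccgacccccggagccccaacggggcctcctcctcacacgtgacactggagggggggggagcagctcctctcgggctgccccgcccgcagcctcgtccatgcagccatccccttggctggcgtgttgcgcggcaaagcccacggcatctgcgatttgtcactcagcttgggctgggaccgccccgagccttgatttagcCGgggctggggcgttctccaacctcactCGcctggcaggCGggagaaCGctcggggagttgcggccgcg
Boll: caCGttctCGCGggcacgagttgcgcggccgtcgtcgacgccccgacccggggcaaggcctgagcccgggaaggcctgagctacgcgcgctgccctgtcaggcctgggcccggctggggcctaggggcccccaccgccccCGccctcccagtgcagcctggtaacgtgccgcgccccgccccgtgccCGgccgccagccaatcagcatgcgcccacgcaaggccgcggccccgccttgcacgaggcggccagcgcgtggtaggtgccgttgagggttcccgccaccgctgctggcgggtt
In the minus-strand windows the printed C of a capital CG is the upper position, and in the plus-strand window it is the lower position. The Vmn2r29 window held 23 CGs, of which 7 were measured on both strands and 3 on 1 strand. The Plagl1 window held 26 CGs, 4 on both strands and 11 on 1, and the Boll window 39 CGs, 5 on both and 22 on 1. CCGG occurred 6 times, 2 times and 4 times in them, and at least once in 53.5% of 31363 distinct autosomal windows of this length; none of the 7 Vmn2r29 pairs lay in a CCGG.

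The strands of a CpG gave close values in every library. The mean absolute difference between them was 2.88 points ± 0.224 (SD over 20 libraries), with a lowest of 2.38 and a highest of 3.34 points. Both strands had the same value at 43.5% to 56.7% of pairs, and nearly all of these were pairs at exactly 0% on both strands, a mean of 50.96% of all pairs against 0.364% at 100% on both and 0.0837% at a shared value in between. A mean of 81.2% of pairs differed by less than 5 points and 90.8% by less than 10 points. Pearson's r across the pairs of a library ran from 0.975 to 0.988, a description across CpGs that share library and level. Neither strand was higher on the whole: the lower minus the upper position averaged -0.0113 points over the libraries, with a range of -0.0499 to 0.0229. A pair at 0% on 1 strand and 100% on the other occurred at most 2 times in a library and in most libraries not at all.

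Pairs were less methylated than positions measured on 1 strand. The mean level was 18.9% ± 0.576 for pairs and 34.8% ± 0.732 for single positions (SD, n = 20 libraries), and was lower for pairs in 20 of 20 libraries. A level of 5% or less was found at 70.6% of pairs and at 50.8% of single positions, and a level of 95% or more at 3.69% and 8.33%.

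The difference between strands was largest at intermediate levels. In pairs with a mean level up to 5% it averaged 0.687 points ± 0.0721, from 5% to 20% it was 6.51 ± 0.816, from 20% to 80% 10.9 ± 0.901, from 80% to 95% 7.09 ± 0.639, and above 95% 3.79 ± 0.264 (SD, n = 20 libraries each). The 20% to 80% class held 11.6% of pairs, and in it 1.36% of pairs differed by 40 points or more. A mean level near 0% or 100% leaves little room for strands to differ, so the classes themselves bound these values. Over all pairs the strands of a CpG were closer to each other than the same strand was between mice: the lower position of a library differed from that of its group mates by 3.15 points ± 0.137, more than between strands in 19 of 20 libraries. At levels of 20% to 80% the same comparison gave 10.9 points between strands and 12.7 points between group mates, whereas up to 5% the values were 0.687 and 0.702 and above 95% they were 3.79 and 3.75. Averaging both strands brought libraries of a group closer together, to 2.54 points ± 0.160, in 20 of 20 libraries. Averages cannot differ by more than the single strands do in the mean, so a drop was nearly fixed in advance.

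**Figure D1:**
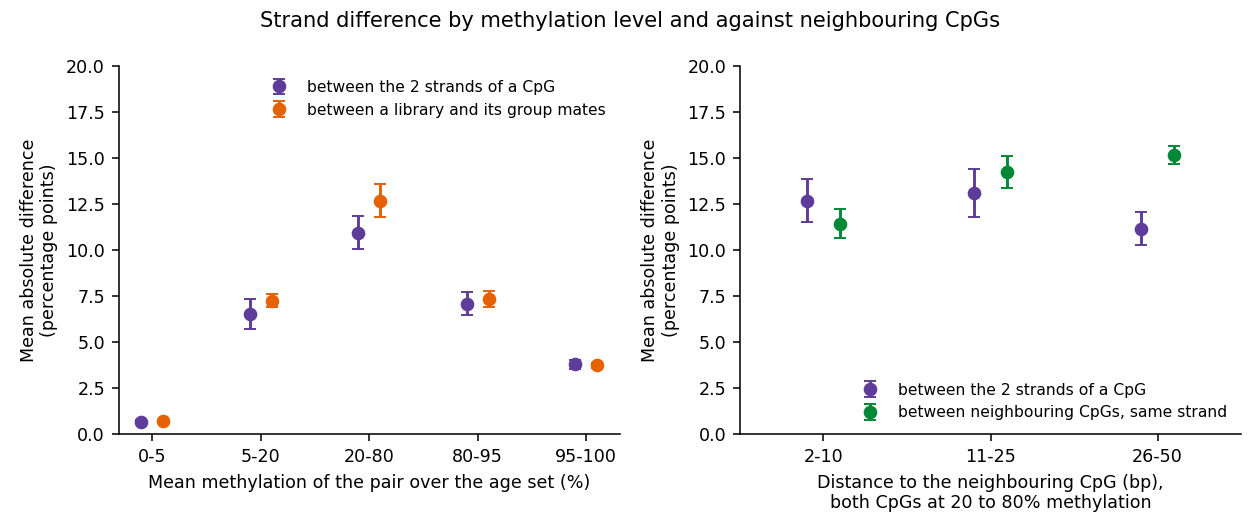
Mean absolute difference in percentage points, as means over 20 libraries with SD bars. On the left, by mean level of the pair, between the strands of a CpG and between a library and its group mates at the lower position; on the right, for CpGs at 20% to 80%, between the strands of a CpG and between neighbouring CpGs on the same strand. The strand difference peaks at 10.9 points at intermediate levels, and neighbours 26 to 50 bp apart differ by more than strands do.

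Neighbouring CpGs gave a scale for this difference. At 20% to 80%, CpGs 26 to 50 bp apart differed between their strands by 11.2 points ± 0.904 and from each other on the same strand by 15.1 ± 0.494 (SD, n = 20 libraries), and the strands were closer in 20 of 20 libraries. At 11 to 25 bp the values were 13.1 ± 1.32 between strands and 14.2 ± 0.850 between CpGs, with the strands closer in 19 of 20. At 2 to 10 bp the order turned: the strands of a CpG differed by 12.7 ± 1.15 and neighbours on the same strand by 11.4 ± 0.792, with the strands closer in 1 of 20 libraries.

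Agreement between strands was not found to differ between HEM and WT or between ages. At 13 months the mean absolute strand difference averaged 2.75 points ± 0.246 over 8 HEM libraries and 2.89 ± 0.142 over 4 WT libraries (SD), with HEM libraries from 2.38 to 3.19 and WT libraries from 2.78 to 3.10. At 3 months it was 2.96 ± 0.121 in HEM and 3.08 ± 0.188 in WT (SD, n = 4 each), with HEM libraries from 2.83 to 3.10 and WT libraries from 2.89 to 3.34. The groups overlapped at both ages, and a two-sided exact permutation test gave p = 0.335 for 13 months and 0.343 for 3 months. Over the pairs listed at both ages the 13-month value was 2.71 and the 3-month value 2.70 in HEM, and 2.85 and 2.82 in WT (exact permutation p = 0.945 and 0.829).

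Pairs that differed by 40 points or more made up 0.156% ± 0.0554 of all pairs in HEM (SD, n = 8) and 0.169% ± 0.0410 in WT (SD, n = 4) at 13 months, with exact permutation p = 0.695. At 3 months they made up 0.201% ± 0.0458 in HEM and 0.252% ± 0.0755 in WT (SD, n = 4 each; exact permutation p = 0.371). In counts a library held from 102 such pairs, in HEM replicate 7 of 13 months, to 535, in WT replicate 3 of 3 months. Mean levels of pairs at 13 months were 18.6% ± 0.653 for HEM and 18.6% ± 0.271 for WT, and at 3 months 19.3% ± 0.117 for HEM and 19.4% ± 0.352 for WT. Over 16 tests (4 measures, 4 comparisons) the smallest exact permutation p was 0.0857, for the signed strand difference at 3 months, at -0.00529 points ± 0.0154 in HEM and -0.0290 ± 0.0107 in WT, and its Benjamini-Hochberg adjusted p was 0.990. The designs allow no p below 0.00202 with 8 against 4 libraries and 0.0286 with 4 against 4. None of the 4 measures showed a change of the HEM effect with age, with an exact permutation p of at least 0.602.

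**Figure D2:**
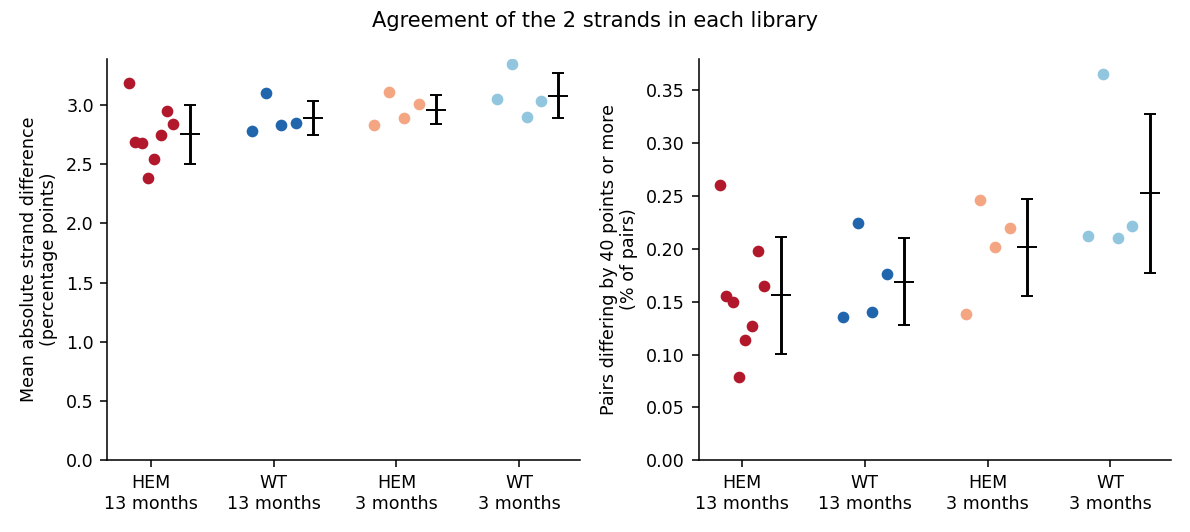
Each point is a library, in the order HEM and WT at 13 months and HEM and WT at 3 months; bars are group means with SD. The left axis is the mean absolute strand difference in percentage points (2.38 to 3.34), the right axis the percent of pairs that differ by 40 points or more (0.0786% to 0.365%), and the groups overlap in both.

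A small set of CpGs had strands that differed by 40 points or more in most libraries of a group (at least 5 of 8, or 3 of 4). There were 46 in HEM (0.0354% of 129783 pairs) and 39 in WT (0.0301%) at 13 months, and 67 in HEM (0.0457% of 146495) and 64 in WT (0.0437%) at 3 months. The threshold chose them, so these values are a description. The upper position was the higher in 32 of 46, 28 of 39, 46 of 67 and 46 of 64 of them, taken in the same order of groups, and the median difference was 61.3, 69.6, 62.2 and 63.0 points. In each group 7 of those with the upper position higher lay within 31 bp before Vmn2r29, so they are not separate sites. Among all pairs of 40 points or more in a library, the lower position was the higher in a mean of 45.5%. In the HEM set of 13 months the less methylated strand was under 10% in 18 of the 46, and, as a separate count, the more methylated strand was above 80% in 28. Near the threshold, the value that decided entry was 40.3 points for the last pair in and 39.95 for the first pair out in HEM at 13 months, with 9 pairs from 40 to 45 and 10 from 35 to 40.

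The same CpGs came up in different mice. Of pairs listed at both ages, 28 were in the set of all 4 groups (0.0224% of 124930) and 54 in the set of at least 1. HEM and WT of 13 months shared 35 pairs, 76.1% of the HEM set and 89.7% of the WT set, and HEM and WT of 3 months shared 47, 70.1% and 73.4%. Between ages, which share no library, HEM shared 31 pairs of those listed at both ages (75.6% of the 13-month and 79.5% of the 3-month set) and WT 30 (88.2% and 78.9%). Every shared pair had the same strand higher in both groups. Only 1 pair was in both HEM sets and in neither WT set, and none was in both WT sets alone. The 11 pairs in the HEM and not the WT set of 13 months had a median absolute difference of 33.4 points in WT, the same strand higher in 11 of 11. The 20 in the HEM and not the WT set of 3 months had a median of 31.8 points in WT, the same strand higher in 19 of 20. In 1 pair of each set of 3 months the 40 points were not reached with the same strand higher in most libraries: the Mark1 pair at chr1:184905471-184905472 averaged -14.3 points ± 55.6 in HEM, and the Samd4b pair at chr7:28400024-28400025 -4.08 ± 55.1 in WT (SD, n = 4 each).

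The sets of 3 months were read in the 13-month libraries, which had no part in choosing them. Of the 67 pairs of HEM at 3 months, 39 were tested in HEM at 13 months, all 39 with the same strand higher, 32 of them past limma's adjusted p under 0.05 and 10 points, against 0.057% of all pairs. Of the 64 pairs of WT at 3 months, 38 were tested in WT at 13 months, all 38 with the same strand higher. By limma 3 of them were called (0.00263% of all pairs were) and 33 had an unadjusted p under 0.05 (3.41% of all pairs). Conversely, 41 pairs of the HEM set of 13 months were tested in HEM at 3 months, all 41 with the same strand higher. By limma 1 was called (0.00173% of all pairs) and 38 had an unadjusted p under 0.05 (3.98%). Of the WT set of 13 months 34 were tested in WT at 3 months, all 34 with the same strand higher, and by limma 4 were called (0.00518%) and 34 had an unadjusted p under 0.05 (3.74%).

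**Figure D3:**
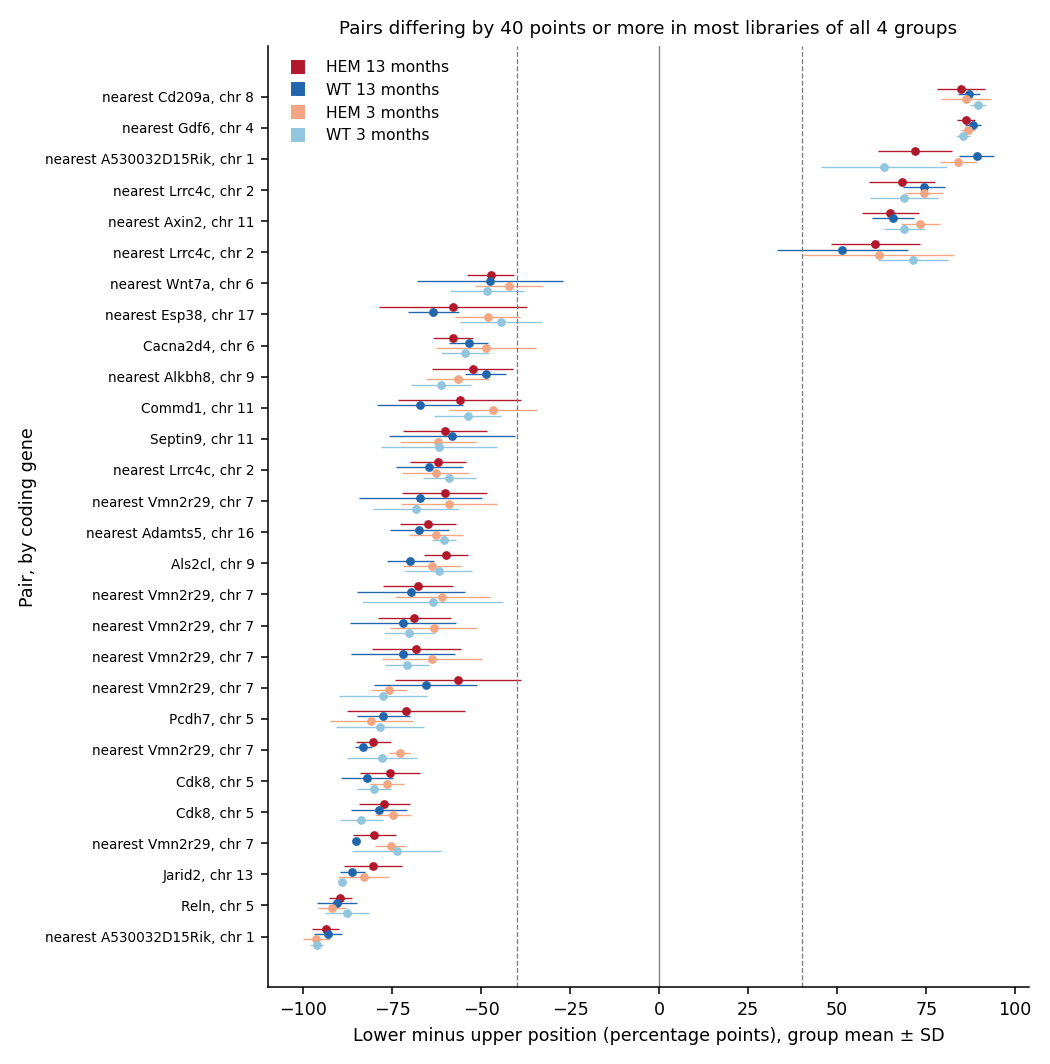
The 28 pairs that differed by 40 points or more in most libraries of all 4 groups, named by the coding gene that holds them or lies nearest. Points are group means of the lower minus the upper position in percentage points with SD bars (HEM n = 8 and WT n = 4 at 13 months, 4 each at 3 months). Dashed lines mark 40 points. The upper position is higher in 22 pairs, 7 of them before Vmn2r29, and the lower in 6.

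Among pairs with the lower position higher, one of the widest differences was at chr4:10137201-10137202 (mm10), outside annotated genes and 274856 bp from Gdf6, a growth factor gene. In HEM at 13 months its lower position ran from 81.9% to 89.7% (median 86.7%) and its upper position from 0% to 0.808%. WT libraries of 13 months were at 88.6%, 90.95%, 88.4% and 85.7% on the lower position and at 0.661%, 0%, 0% and 0.238% on the upper. HEM libraries of 3 months were at 88.5%, 84.1%, 88.6% and 87.2% against 0.541%, 0.167%, 0.304% and 0.151%, and WT libraries of 3 months at 84.3%, 84.5%, 87.3% and 88.7% against 0%, 1.49%, 0.185% and 1.80%. No value of the upper position came within 80 points of the lower in any of the 20 libraries.

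At chr8:3754451-3754452, 5467 bp from Cd209a, a lectin receptor gene of dendritic cells, the lower position was at 95.3% to 100% and the upper at 8.47% to 26.3% in HEM of 13 months. In WT of 13 months they were at 93.3% to 100% and 10.5% to 13.8%, and the difference was 86.1 points ± 7.07 in HEM and 89.6 ± 2.28 in WT at 3 months (SD, n = 4). HEM replicate 3 of 13 months, the library without a strain label, had the smallest difference there, 70.3 points. At chr2:98666262-98666263, 1034590 bp from Lrrc4c, the lower position was at 94.5% to 96.6% in every library and the upper at 14.8% to 47.8%. At chr2:98666503-98666504 nearby the order was turned, with a lower position at 31.6% and an upper at 96.2% in WT of 13 months.

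Among pairs with the upper position higher were some inside genes. At chr5:22071480-22071481 in Reln, which encodes the extracellular protein reelin that guides migrating neurons, the upper position was at 88.6% to 96.9% (median 90.9%) and the lower at 0% to 7.04% in HEM of 13 months. WT of 13 months had 100%, 96.0%, 93.1% and 87.7% on the upper and 5.41%, 0%, 6.45% and 2.78% on the lower position. At 3 months the difference was -91.9 points ± 3.97 in HEM and -87.7 ± 6.23 in WT (SD, n = 4). At chr13:44869654-44869655 in Jarid2, a subunit gene of a Polycomb repressive complex, the lower position was at 11.9% ± 5.33 and the upper at 92.3% ± 6.22 in HEM of 13 months (SD, n = 8), against 8.91% ± 1.74 and 95.2% ± 1.87 in WT (SD, n = 4). Both groups of 3 months had the same order, by -83.1 points in HEM and -89.0 points in WT. In these genes every library had the upper position higher.

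Other genes that held such pairs in all 4 groups were Cdk8, a Mediator kinase, with 2 pairs 12 bp apart, Pcdh7, an adhesion protocadherin, Septin9, a cytoskeletal GTPase, Cacna2d4, a calcium channel subunit, and Als2cl. At the first Cdk8 pair, chr5:146261047-146261048, lower and upper positions of 13 months were at 9.89% and 85.5% for HEM and 7.54% and 89.6% for WT. Those of 3 months were at 9.65% and 86.2% for HEM and 6.98% and 87.1% for WT. At the Septin9 pair, chr11:117232710-117232711, they were at 2.88% and 63.2% in HEM and 2.59% and 60.8% in WT at 13 months. At the Als2cl pair, chr9:110890290-110890291, they were at 38.3% and 98.2% in HEM and 30.04% and 100% in WT at 13 months.

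The Vmn2r29 promoter was the only window with several such pairs. Its 7 pairs span 31 bp, from chr7:7278379 to 7278409, and lie 90 to 119 bp before the gene. All are in the printed window, in capitals. Averaged over the 7 pairs, the lower position was at 2.63% ± 3.18 in HEM (SD, n = 8) and 1.57% ± 1.41 in WT (SD, n = 4) at 13 months, and at 3.23% ± 1.83 in HEM and 5.20% ± 6.66 in WT at 3 months (SD, n = 4 each). The upper position, on the strand that is printed, reached 71.5% ± 6.45 for HEM and 75.1% ± 10.6 for WT at 13 months, and 70.6% ± 6.20 for HEM and 76.9% ± 4.40 for WT at 3 months. The upper position was higher in all 140 values (7 pairs, 20 libraries), and 136 of them differed by 40 points or more.

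Of the 7, the pair at chr7:7278402-7278403 had an upper position at 74.3% to 88.9% and a lower position at 0% to 9.23% in HEM of 13 months. In WT of 13 months the upper position was at 89.4%, 87.6%, 86.5% and 85.7% and the lower at 4.76%, 3.45%, 0% and 0%. At 3 months HEM differed by -75.5 points ± 4.46 and WT by -73.8 ± 12.4 (SD, n = 4), and WT replicate 1 was at 17.5% on the lower position. Pairs at 7278408, 7278391 and 7278395 differed by -80.3, -68.9 and -68.2 points in HEM and -83.1, -72.0 and -72.0 points in WT at 13 months. Of the 2527 windows with at least 4 pairs in both ages, only Vmn2r29 had a mean strand difference over 40 points, at 70.4. The next were Gm51701 at 12.0, Hymai at 5.76 and Plagl1 at 5.1 points.

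In the windows of Plagl1 and Boll, at similar mean levels of 37.6% and 41.7% against 38.1% for Vmn2r29, the strands lay closer together. The mean absolute difference was 9.90 points over the 4 Plagl1 pairs and 9.49 over the 5 Boll pairs, and 0 of 80 and 1 of 100 values differed by 40 points or more. Averaged over its pairs, Plagl1 had its lower position above the upper by 9.20 points ± 9.42 in HEM (SD, n = 8) and 12.6 ± 10.8 in WT (SD, n = 4) at 13 months, and by -1.52 ± 4.11 in HEM and 0.124 ± 7.45 in WT at 3 months. Boll differed by 2.43 points or less in the mean of each group.

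**Figure D4:**
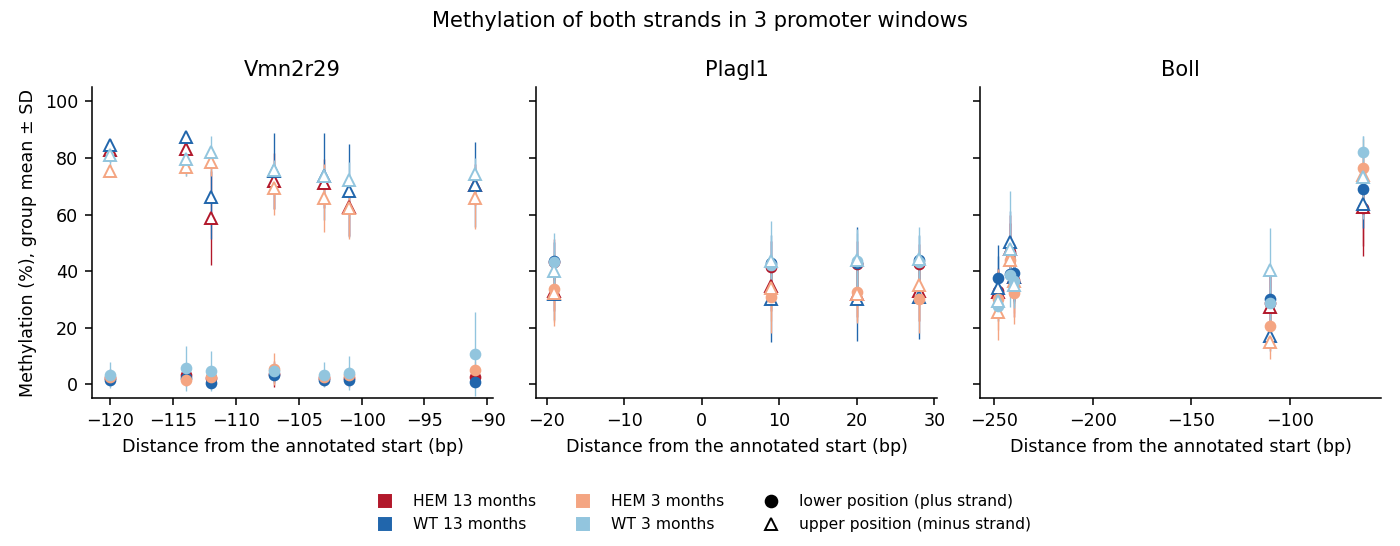
Methylation of each pair in the promoter windows of Vmn2r29, Plagl1 and Boll by distance in bp from the annotated start, as group means with SD bars; filled circles are the lower position (plus strand) and open triangles the upper (minus strand). In Vmn2r29 the upper positions lie between 58.9% and 87.3% and the lower positions at 10.7% or less in group means, whereas in Plagl1 and Boll the strands overlap.

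Imprinted loci, where the copies from mother and father differ, offer CpGs at intermediate levels. Of 21 listed genes 20 held pairs, and 15 had a mean level of 30% to 60% at 13 months and 14 at 3 months. In those other than Zrsr1, a paternally expressed gene inside Commd1, mean absolute differences were 5.04 to 11.9 points at 13 months and 6.40 to 17.8 points at 3 months, the last in Snrpn. Zrsr1 averaged 18.03 points at 13 months and 17.7 at 3 months, and 1 of its pairs was in the sets of all 4 groups. At chr11:22972264-22972265 the lower position was at 28.9% ± 8.66 and the upper at 84.9% ± 14.0 in HEM of 13 months (SD, n = 8), against 21.2% ± 10.02 and 88.5% ± 2.73 in WT (SD, n = 4). At 3 months they were at 34.4% and 81.0% in HEM and 28.1% and 81.9% in WT. The other 5 pairs of Zrsr1 had group mean differences between -20.9 and 26.3 points. Those at 22972992 and 22974116 were at 30.9% to 40.7% and 28.0% to 38.5% on either strand. At the other end, a Gnas pair at chr2:174329714-174329715 was at 0% on both strands in all 20 libraries.

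No pair of the 5 cell type marker lists entered a set in any group; with 0.0301% to 0.0457% of all pairs in the sets, nothing is read from this count. In 7 of 13 autosomal microglia genes, among them Irf8, Sall1 and Tmem119, 76 pairs of 13 months differed by 4.88 points ± 0.724 in HEM and 5.42 ± 0.388 in WT at mean levels of 31.1% and 31.5%. The widest was in Irf8, a transcription factor of microglia, at chr8:120739926-120739927, with lower and upper positions at 50.9% and 52.7% in HEM and 64.3% and 44.8% in WT at 13 months, each with SDs of 15.2 to 26.8 points. The narrowest was a pair 305 bp from Irf8 at 0% or nearly so on both strands. In the neuron, astrocyte, oligodendrocyte and vessel lists the widest pairs were in Rbfox3, Aqp4, Mbp and Pecam1, at mean absolute differences of 17.6, 12.6, 11.4 and 11.5 points, and the narrowest in Slc17a7, Aldoc, Olig2 and Cldn5, at 0, 0.152, 0.385 and 1.70 points. Genes that write, keep, oxidise or read methylation, Tet2 and Mbd2 among them, held 123 pairs at 13 months. These differed by 1.46 points ± 0.209 in HEM and 1.51 ± 0.101 in WT. At 3 months the genes held 129 pairs, with 2.43 ± 0.511 for HEM and 2.37 ± 0.332 for WT. The widest of these was in Dnmt3a, 12.3 points, and 9 pairs, such as 1 in Tet2, were identical on both strands in every library. These values do not measure which cells the samples held.

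The position of the pairs that differed by 40 points or more is given as a description. Most pairs could hardly enter a set: 70.9% had a mean level up to 5%, and 0.000627% of those differed by 40 points or more. Placement was not set against pairs of like level, so place and level are not told apart. Of the 98 that were in a set of any group, 51 lay in a gene (52.0%, against 81.7% of all 151348 pairs) and 7 in a promoter window (7.14%, against 16.1%). Of the 28 in all 4 sets, 13 lay in a gene (46.4%, against 82.1% of pairs listed at both ages) and 7 in a promoter window (25%, against 16.2%), all 7 in that of Vmn2r29. The 98 were on 18 of 19 autosomes. Pairs within 50 bp of them that were not in a set differed by a mean of 11.1 points at 13 months and 11.8 at 3 months, against 2.80 and 3.02 for all pairs and 10.9 for pairs of 20% to 80%.

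Clusters of such pairs within 100 bp were of 2 kinds. In 5 clusters all pairs had the same strand higher: Vmn2r29, Cdk8, and those with Tusc1, Ndn and Lingo1 as nearest coding genes. In those named last the pairs lay 10 to 32 bp apart, and 445603, 207321 and 25492 bp from these genes in that order. In 5 others 2 pairs 49 or 50 bp apart had opposite strands higher, and in each the first pair had the lower and the second the upper position higher. At chr1:85112475-85112476 in Gm35498 the lower position was at 87.3% ± 3.604 and the upper at 15.4% ± 10.6 in HEM of 13 months (SD, n = 8), against 95.1% ± 4.54 and 6.01% ± 2.08 in WT (SD, n = 4). At its partner chr1:85112524-85112525, 49 bp on, the lower position was at 0.192% ± 0.544 and the upper at 93.8% ± 3.79 in HEM, against 0.599% ± 0.693 and 93.6% ± 3.74 in WT. At 3 months the partner was at 0% to 3.41% on the lower and 93.9% to 100% on the upper position in all 8 libraries, whereas the first pair's upper position was at 6.62%, 16.3%, 8.33% and 2.56% in HEM and 50.9%, 23.9%, 41.6% and 8.43% in WT. The other 4 lay in Lrrc4c and Pcdh7, which encode neuronal adhesion proteins, 4612 bp from Hmcn2 and 343759 bp from Fbxo15. In each of those, 1 or both pairs were listed at 1 age only.

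That distance is where the spacing of pairs changes. In the 13-month set 2805 couples of pairs lay 50 bp apart and 639 lay 51 bp apart, and in the 3-month set 3290 and 889. Counts per bp ran from 2349 to 2805 between 41 and 50 bp and from 639 to 1096 between 51 and 60 bp at 13 months. Couples with opposite strands higher by 20 points or more on average occurred at 49 and 50 bp at 13 months and at 38, 49, 50 and 85 bp at 3 months, with the lower position higher in the first of each couple. The read length is not given in the sources used here, and the part of fragment and read ends in these pairs was not tested.

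**Figure D5:**
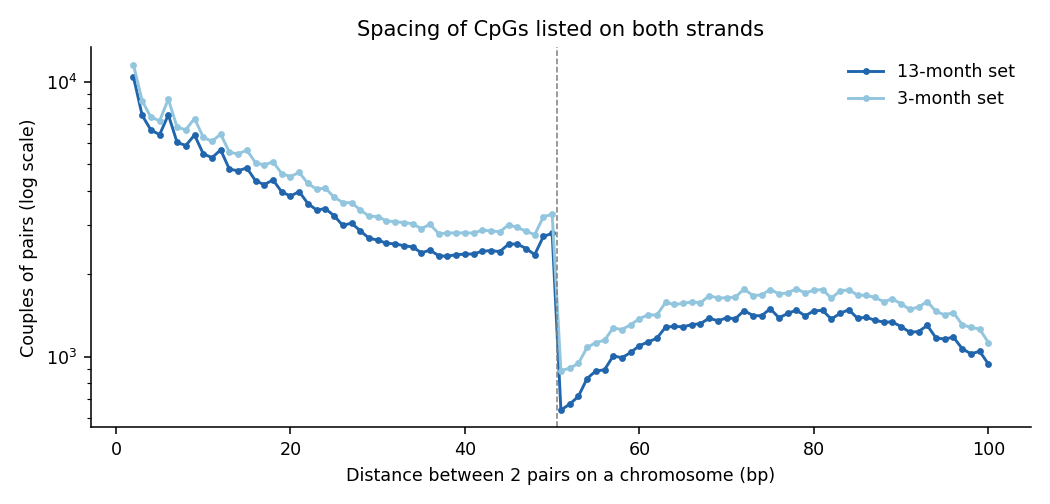
Number of couples of pairs (log axis) by the distance between them in bp, for the 13-month and 3-month sets; the dashed line lies between 50 and 51 bp. Couples number 2805 at 50 bp and 639 at 51 bp in the 13-month set, and 3290 and 889 in the 3-month set.

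Which pairs had a strand difference within a group was tested with limma over all pairs whose strands differed in any library, with calls at a Benjamini-Hochberg adjusted p under 0.05 and 10 points. In HEM at 13 months, 65 of 113936 pairs were called (0.057%), 24 with the lower (0.0211%) and 41 with the upper position higher (0.036%). In WT at 13 months 3 were called (0.00263%), and at 3 months 2 of 115840 in HEM (0.00173%) and 6 in WT (0.00518%). With any 1 library left out limma called 37 to 46 for HEM at 13 months, 0 for WT at 13 months, 0 for HEM at 3 months, and for WT at 3 months 0, or 1 without replicate 5. HEM at 13 months had 8 libraries and the others 4, so the counts cannot be set against each other. Over pairs of 5% to 95% alone limma called 292 for HEM and 42 for WT at 13 months, and 71 for HEM and 67 for WT at 3 months. Pairs at these levels number 34063 at 13 months and 39256 at 3 months. Fewer pairs were thus tested, and these counts cannot be set against those over all pairs. Of the 65 called over all pairs in HEM at 13 months, 39 were in the set above and 26 were not. The same strand was higher in WT of 13 months in 64 of 65. Of the 61 listed at both ages, 61 had it in HEM and 60 in WT at 3 months. The pair near Gdf6 was called in all of WT at 13 months, HEM at 3 months and WT at 3 months, with limma adjusted p of 0.0415, 0.0359 and 0.0227.

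Strand differences were not found to change with the transgene at either age. Of 113936 pairs at 13 months and 115840 at 3 months, 0 were called between HEM and WT with limma. An unadjusted limma p under 0.05 was found at 4526 pairs (3.97%) and 3715 pairs (3.21%). The pair of smallest p at 13 months lay in Vps37b, an endosomal sorting gene, at chr5:124005076-124005077, where HEM averaged -0.950 points ± 4.04 and WT 20.5 ± 6.09 (limma adjusted p = 0.584). At 3 months it was chr15:97085158-97085159 in Gm32840, where HEM averaged 18.1 ± 3.09 and WT -12.2 ± 4.63 (limma adjusted p = 0.868). The other pairs of smallest p lay in or near Sptbn4, Kcnn4 and Kcng3 at 13 months and in Acvrl1, Vps11 and Tlcd4 at 3 months, by 5.27, 16.4, -17.0, 18.2, -15.2 and -23.0 points, with limma adjusted p of at least 0.584.

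Between ages, 0 of 109761 pairs were called in HEM with limma and 1 of 101900 in WT (0.000981%). An unadjusted limma p under 0.05 was found at 3943 pairs in HEM (3.59%) and 3365 in WT (3.30%). The 1 call in WT was chr8:23398893-23398894 in Gm30370, 12489 bp from Sfrp1. In WT of 13 months its lower position was at 50%, 29.5%, 36.4% and 35% and its upper at 67.6%, 46.4%, 50% and 50%. In WT of 3 months the lower was at 48.6%, 53.6%, 54.2% and 57.6% and the upper at 23.8%, 33.3%, 35.7% and 41.9%. The upper position was thus the higher in all 4 libraries of 13 months and the lower position in all 4 of 3 months, a change of -35.6 points ± 1.997 (SE; limma adjusted p = 0.0491). The call was lost without any of the 8 libraries (limma adjusted p of 0.0750 to 0.478). In HEM the difference at this pair was 0.0568 points ± 17.1 (SD, n = 8) at 13 months and 2.90 ± 20.7 (SD, n = 4) at 3 months. The pairs of smallest p in HEM lay in Cmip and Celf2 and near Cryzl2 and Zfp536, by 19.6, -16.8, 9.32 and -20.5 points (limma adjusted p = 0.928).

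Methylation itself, as the mean of both strands, was tested in one limma fit with the single positions on log2((percent + 1)/(100 - percent + 1)), for levels from 5% to 95%. Between HEM and WT, 0 of 34063 pairs were called at 13 months and 0 of 39256 at 3 months (limma). An unadjusted limma p under 0.05 was found at 1344 pairs (3.95%) and 1180 pairs (3.01%). Of single positions 1 (0.000266%) and 8 (0.00198%) were called. Among pairs, the smallest p at 13 months was in Otud7a, a deubiquitinase gene, at chr7:63758265-63758266. There HEM averaged 0.637% ± 0.920 and WT 14.6% ± 10.9 (SD, limma adjusted p = 0.210). At 3 months it was in Anks1b, a synaptic scaffold gene, at chr10:90969591-90969592, where HEM averaged 10.8% ± 3.99 and WT 0.272% ± 0.543 (SD; limma adjusted p = 0.236). Pairs in Nt5c1a, Mtcl1 and Tdgf1 at 13 months differed by 10.8, 10.7 and -6.74 points, and pairs in or near Sh3bp1, Cxadr and Rnf144b at 3 months by -8.58, 12.0 and -15.5 points, with limma adjusted p of at least 0.302.

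Between ages the fit called 10 of 32548 pairs in HEM (0.0307%, against 0.0329% of single positions) and 10 of 32336 in WT (0.0309%, against 0.0157%), 9 of them higher at 13 months in each. The genotypes were not alike below the calls. In HEM 3429 pairs had an unadjusted limma p under 0.05 (10.5%, against 10.7% of single positions). In WT 918 pairs did (2.84%, against 4.98%). HEM had 8 libraries of 13 months and WT 4, so these shares are not a like comparison. HEM had 4 to 6 calls without any 1 of replicates 6, 7, 8, 11 and 13 of 13 months or 1, 2 and 3 of 3 months, and 7 to 12 without any 1 of the others. On both strands all 20 calls moved the same way by 10 points or more. They were called on the mean of both strands, and some pairs were called in both genotypes. The strand estimates lay a median of 12.8 points apart in HEM (1.2 to 31.65) and 16.2 in WT (1.2 to 20.1). The HEM rise at chr9:123924911-123924912 was 18.9 points on the lower and 50.6 on the upper position, and the WT rise 33.6 and 50.4. Strands lay far apart there in some HEM libraries of 13 months. Replicates 3, 6, 11 and 13 were at 20.8%, 20%, 12.5% and 7.69% on the lower and 64.7%, 76.7%, 73.0% and 63.2% on the upper position. Replicates 1, 7, 8 and 10 were at 9.38%, 47.5%, 31.4% and 2.13% on the lower and 14.3%, 47.1%, 65.6% and 0% on the upper. On the percent scale limma called 1 pair in HEM and 5 in WT, and without chromosomes 9 and 17 it called 0 in each. In WT, 9 lay between 123923650 and 123925520 of chromosome 9, the nearest coding gene being the chemokine receptor gene Ccr1, and so did 6 in HEM. At chr9:123925519-123925520 in Gm51701, WT of 13 months was at 77.6%, 83.2%, 70.1% and 55.7% on the lower and 71.8%, 70.7%, 70.9% and 36.3% on the upper position, against at most 1.75% on either strand in WT of 3 months (limma adjusted p = 0.000237). HEM of 13 months ran from 2% to 73.9% on the lower and 6.25% to 75.1% on the upper position, lowest on both in replicate 10, against at most 1.85% in HEM of 3 months (limma adjusted p = 0.00755).

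In HEM 3 more of the called pairs were on chromosome 17, near Vmn1r233 and H2-Oa, a class II histocompatibility gene, and in Prrc2a. At chr17:34096158-34096159, 924 bp from H2-Oa, both strands were at 0% in all 4 HEM libraries of 3 months, and the mean was 44.3% ± 10.8 in HEM of 13 months (SD, n = 8; limma adjusted p = 1.24e-06). There the 13-month level was 52.9% on the lower and 35.8% on the upper position. WT of 13 months was not alike: WT replicate 6 was at 0% on both strands of that pair, and the other 3 WT libraries were at 22.5% to 65.1% on the lower and 34.9% to 74.8% on the upper. At chr17:35149265-35149266 in Prrc2a, HEM of 13 months averaged 47.6% ± 21.3, and HEM replicates 3 and 8 were at 90.2% and 71.7% where the other 6 were at 33.5% to 40.99%.

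Pairs lower at 13 months were 1 in each genotype. In HEM it was chr7:35607010-35607011 in Ankrd27, an endosomal trafficking gene, at 69.5% ± 6.23 at 13 months (SD, n = 8) and 91.5% ± 2.47 at 3 months (SD, n = 4; limma adjusted p = 0.0406), by -19.1 points on the lower and -24.8 on the upper position. In WT it was chr8:16094220-16094221 in Csmd1, a complement regulator gene, at 46.0% ± 5.38 at 13 months and 93.7% ± 4.20 at 3 months (SD, n = 4 each; limma adjusted p = 0.0246), by -42.7 and -52.7 points. HEM of 13 months at this Csmd1 pair was at 90.9% or more in 6 libraries, 57.3% in replicate 6 and 4.02% in replicate 8, and both strands lay within 10 points of each other in all 8. The Ankrd27 call was lost without any library but HEM replicate 3 of 13 months, and the Csmd1 call without any of WT replicates 1, 2 and 7 of 13 months or 3, 4 and 5 of 3 months.

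Each strand was also fitted alone, and shares of all pairs tested are not given for these fits. A pair called on both strands counts once for each strand, so its other strand is itself a called one. Agreement was not counted apart for pairs called on a single strand. In the HEM age comparison 9 pairs were called on the lower and 12 on the upper position, 4 of them on both, and the other strand moved the same way in 19 of the 21 calls, by a median of 8.55 points where the called strand moved by 19.6. In the WT age comparison 13 and 12 were called, 9 on both, and the other strand moved the same way in 24 of 25. The median move was 33.6 points on the called strand and on the other. The 9 pairs called on both strands give the same values to both medians, so nothing is read from their equality. Between HEM and WT at 13 months the fits called 1 pair on the lower and 2 on the upper position, none on both, and the other strand differed by a median of 4.04 points where the called one differed by 13.3.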

How the data were processed

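Bowtie2, methylKit and the mm10 build are named, per the submitters' processing notes, without versions, and read counts are not given. The deposited files hold percent methylation per position for each library. A value table of each whole age set, with 21 value columns in all, was not used. Groups came from the labels. Pairs of positions were formed as described above, and the members, gene lists and tests were chosen with earlier results of these data known. Library measures were tested by exact permutation, two-sided. Strand differences in points, and levels on log2((percent + 1)/(100 - percent + 1)), were fitted with limma 3.58.1 in R 4.3.3, tested on simulated data, over all pairs or all autosomal CpGs, with Benjamini-Hochberg adjustment. Calls needed an adjusted p under 0.05 and 10 points. Named pairs were, by rule, the 4 widest in each direction among those discordant in all groups, those in promoter windows, the called pairs of widest difference or those of smallest p, and the widest and narrowest of each gene list; other pairs were named after their values were seen. Genes within 1000 bp counted for lists. Alternatives covered thresholds, scales, filters, runs, strands, chromosomes, leaving out each library, and a replicate block. The design text counts mice, and each library is taken as 1 mouse; p-values measure the spread between these libraries.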

Additional observations from a re-analysis of the deposited data

Results flagged for a closer look

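In 6 of 64 groups of values examined (9.38%) the highest or lowest library stood apart from the others of its group, where chance flags about 1 in 20 groups. The share of pairs that differed by 40 points or more was highest in WT replicate 3 of 3 months, at 0.365%, where the other 3 WT libraries had 0.210% to 0.222%. The mean signed strand difference of WT replicate 1 of 3 months was -0.0130 points, the highest of its group. At chr8:3754451-3754452 near Cd209a, HEM replicate 3 of 13 months had the smallest difference, 70.3 points. At chr2:98666262-98666263, HEM replicate 8 of 13 months had the smallest difference, 46.8 points, with an upper position at 47.8%. At the Jarid2 pair, WT replicate 5 of 3 months was lowest at -90.8 points, with the other 3 libraries at -88.3 to -88.5. At chr7:7278408-7278409 before Vmn2r29, WT replicate 1 of 3 months was highest at -63.0 points.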

How the results depend on the processing

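None of the 4 alternatives that turned a direction made a library measure pass its test. The age difference in mean absolute strand difference (13 minus 3 months) was -0.0128 points in HEM with runs of exactly 2 positions, and -0.446 in HEM and -0.108 in WT with pairs of 20% to 80%; the WT age difference in mean level was -0.0929 with those pairs. A threshold of 30 points gave 73, 89, 118 and 133 pairs in HEM and WT of 13 months and HEM and WT of 3 months, and one of 50 points gave 44 in HEM of 3 months. Asking for every library gave 26 in HEM of 13 months, 39 in HEM and 39 in WT of 3 months. Within groups, limma on pairs of 5% to 95% called 292, 42, 71 and 67 in the same order, among fewer pairs (34063 at 13 months, 39256 at 3 months). On the log2 scale it called 0 in WT of 13 months and 1 each in HEM and WT of 3 months. With runs of exactly 2 it called 0 in WT of 13 months. Between groups, the log2 scale called 1 strand difference for HEM against WT at 13 months and 0 for WT age, and pairs of 5% to 95% called 0 for WT age. For pair methylation, HEM against WT at 13 months had 1 call on the lower and 2 on the upper position alone. HEM age had 1 call on the percent scale, 4 with no filter on level and 0 without chromosomes 9 and 17, and WT age had 5 on the percent scale and 0 without those chromosomes. The cause was not tested.

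With each library left out in turn, mean absolute differences ran from -0.0516 to 0.0621 for HEM age and -0.0462 to 0.107 for WT age. Shares of 40 points or more ran from -0.0280 to 0.00533 for HEM against WT at 13 months and -0.0267 to 0.0207 for WT age. Signed differences ran from -0.00479 to 0.0195 for HEM against WT at 13 months, -0.0105 to 0.00296 for HEM age and -0.0123 to 0.0111 for WT age. Mean levels ran from -0.0648 to 0.229 for HEM against WT at 13 months and -0.166 to 0.0826 at 3 months. Sets held 65 to 76 pairs in WT of 13 months, 97 to 117 in HEM and 107 to 121 in WT of 3 months, where 2 of 3 libraries then make most. Calls within groups ran from 37 to 46 in HEM and 0 to 0 in WT of 13 months, and 0 to 0 in HEM and 0 to 1 in WT of 3 months. Strand difference calls ran from 0 to 0 for WT age, and pair methylation calls from 0 to 1 for HEM against WT at 13 months, 0 to 2 at 3 months and 4 to 12 for HEM age.

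Whether replicate numbers pair the libraries cannot be told, as libraries of unlike numbers were not correlated. Same-numbered HEM and WT libraries of 13 months had correlations of 0.130, 0.319 and 0.0839 in their deviations of pair level. At 3 months these were 0.0843 and -0.178, and between ages in HEM 0.0330, -0.229 and -0.0237. With the replicate block, HEM age had 0 pair methylation calls, and calls between HEM and WT stayed at 0 at both ages. WT libraries of 13 and 3 months share only number 1, so no block could be fitted there.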
